A study of Homo sapiens with 6 samples.

Results

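Of the 25858 BRA peaks called with the R&D Systems antibody in FLyA medium on chromosomes 1 to 22 and X, 7379 (28.5%, 95% interval 28.0 to 29.1%) had their midpoint more than 50 kb from the midpoint of every R&D Systems FLyB peak. These 7379 regions, called activin sites far from BMP4 sites below, were chosen by the measured positions in both R&D Systems lists. Another 9938 FLyA peaks (38.4%) lay within 50 kb of a FLyB peak without overlapping it, and 8541 (33.0%) overlapped a FLyB peak by at least 1 bp. Counts, distances and densities that use the R&D Systems lists alone therefore describe the choice and were not tested. Overlap with peaks of the Santa Cruz antibody was not used to choose the sites.

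The cells were H9, a human embryonic stem cell line in wide use, kept for 36 h in differentiation medium. Both media contained FGF2 (20 ng/ml) and the PI3 kinase inhibitor LY294002 (10 μM). FLyA medium also held 100 ng/ml activin A, and FLyB medium held 10 ng/ml BMP4. BRA-bound chromatin was sequenced in 1 library for each medium and antibody, which gave 4 lists of hg19 positions with 54994 peaks in all, and 2 input libraries were not analysed here. All cells came from 1 cell line, no gene expression was measured in these libraries, and the endoderm or mesoderm identity of the cells could not be checked here against marker genes. By western blot and flow cytometry, the study found mostly low BRA with high EOMES in FLyA cells, with SOX17 raised. In FLyB cells it found mostly high BRA with low EOMES, with CDX2 raised.

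BRA, encoded by the gene T, is a T-box transcription factor of the primitive streak, the region of the gastrulating embryo through which mesoderm and endoderm form. Activin A stands in for NODAL and acts through SMAD2 and SMAD3, and high NODAL signalling favours anterior streak and endoderm. BMP4 acts through SMAD1 and related SMADs and favours posterior streak and mesoderm. ChIP-seq recovers DNA crosslinked to a protein with an antibody, and a peak marks a position where such DNA piled up. Peaks of a transcription factor often lie in distal enhancers, so a site far from all peaks of the other medium may still lie near a gene that the other medium's peaks reach from elsewhere.

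The Santa Cruz lists were much shorter than the R&D Systems lists, with 2430 FLyA and 3003 FLyB peaks against 25858 and 23682. Every peak was 400 bp wide and none carried a height or score. The read depth behind a peak is unknown, so strong and weak sites could not be separated. The study describes the Santa Cruz experiments as noisier and with fewer unique reads than the R&D Systems ones, which bears on each overlap share given here. It also reports that BRA binding with the antibodies was highly correlated in each medium. At selected targets, it reports that ChIP-qPCR bore out the differences between media. Sites were compared with the Santa Cruz lists by position, and a common base (1 bp) was enough to count as overlap. Intervals on shares are exact (Clopper-Pearson) 95% intervals and those on densities exact Poisson intervals. They cover counting error only, since neighbouring peaks are not independent and each medium and antibody has 1 library. Within an antibody, the medium and its library cannot be told apart.

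The midpoints of the activin sites lay a median of 112 kb from the nearest FLyB midpoint, with 74.4 kb and 187 kb as the lower and upper quartiles. The sites nearest the limit lay at 50001, 50011 and 50012 bp from a FLyB midpoint, and the FLyA peaks just left out lay at 50000, 49981 and 49966 bp, so the limit falls in a continuous range. Of the 7379 sites, 4195 (56.9%) were more than 100 kb away, 1668 (22.6%) more than 200 kb, 228 (3.09%) more than 500 kb and 21 (0.285%) more than 1 Mb. The 4558 FLyB peaks more than 50 kb from every FLyA peak lay a median of 94.2 kb away and at most 696 kb, so the longest distances were reached by the activin sites.

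The sites farthest from any FLyB peak included a group of 3 on chromosome 3. The site at chr3:80442567-80442966 lay 1368 kb from the nearest FLyB peak. Its neighbours at chr3:80433832-80434231 and chr3:80415968-80416367 lay 1361 kb and 1343 kb away. The next was an isolated site at chr5:27316041-27316440, which was 1329 kb from a FLyB peak and 1082 kb from the nearest other FLyA peak. A pair on chromosome 7, at chr7:17173535-17173934 and chr7:17169986-17170385, lay 3.55 kb apart, and the farther of them was 1294.5 kb from a FLyB peak. None of these 6 sites overlapped a Santa Cruz peak, and the nearest Santa Cruz FLyA peak lay between 181 kb and 757 kb from them.

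The positions of the chromosomes lying more than 50 kb from every FLyB peak summed to 1713 Mb, or 58.3% of the 2938 Mb between the first and last peaks. The activin sites in it had a density of 4.31 per Mb (4.21 to 4.41), against 15.1 FLyA peaks per Mb (14.9 to 15.3) within 50 kb of a FLyB peak, a ratio of 0.286. Without the 62 stretches of more than 1 Mb that hold no peak of any list, the ratio was 0.317. FLyA peaks thinned with distance from FLyB peaks. Their density was 34.5 per Mb within 10 kb and 6.78 per Mb between 10 and 50 kb. Among the activin sites it was 5.57 per Mb between 50 and 100 kb, 4.70 between 100 and 200 kb, 3.67 between 200 and 400 kb and 1.55 (1.41 to 1.71) beyond 400 kb. The last value depends on the peak-free stretches, since without them it was 3.40 per Mb (3.08 to 3.75) beyond 400 kb and 3.89 (3.68 to 4.11) between 200 and 400 kb. At each of these distances the density of FLyA peaks away from FLyB was above that of FLyB peaks away from FLyA, which was 4.07, 3.04, 2.21 and 0.465 per Mb over the same 4 classes. Without the peak-free stretches, the FLyB density beyond 400 kb was 2.20 per Mb. There were more FLyA than FLyB peaks in all, and the densities were not corrected for it.

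**Figure D1:**
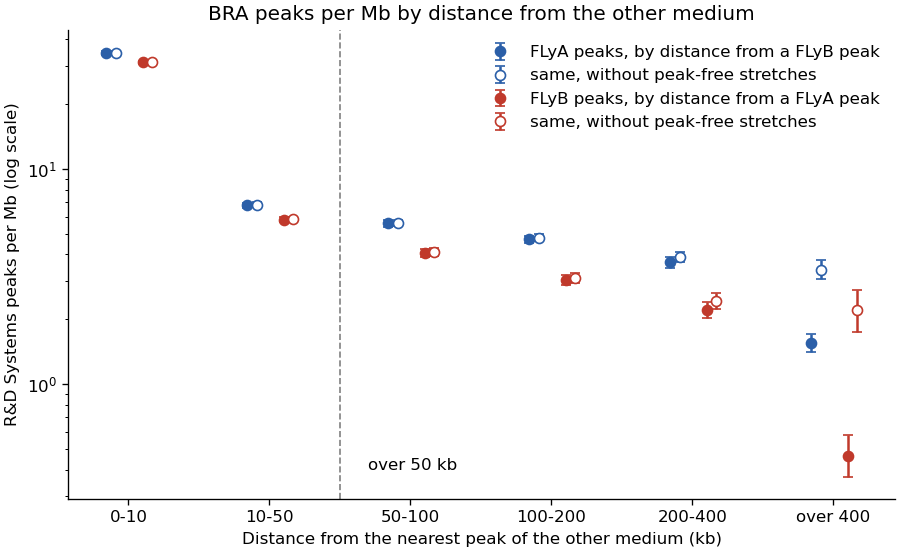
R&D Systems peaks per Mb (log scale) by distance from the nearest R&D Systems peak of the other medium in kb, for FLyA peaks (blue) and FLyB peaks (red). Filled points are densities over the whole span, open points leave out peak-free stretches of more than 1 Mb, bars are exact 95% Poisson intervals, and activin sites are the blue points right of the dashed line, which fall from 5.57 to 1.55 per Mb (filled) or from 5.61 to 3.40 per Mb (open).

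Activin sites were found on each of the 23 chromosomes, from 73 on chromosome 21 to 633 on chromosome 2. They made up between 12.3% of the FLyA peaks (10.6 to 14.1%) on chromosome 17 and 38.5% (35.9 to 41.2%) on chromosome 4. Chromosome X, with 37.5% (34.5 to 40.5%), was close to chromosome 4. Chromosome 22, with 19.5% (15.7 to 23.8%), was next to chromosome 17. FLyB peaks were densest on chromosome 17, with 20.5 per Mb against 5.45 to 12.1 per Mb on the other chromosomes, and there 33.6% of the span lay more than 50 kb from a FLyB peak. Within that part of chromosome 17 the activin sites were not sparse. Their density of 6.28 per Mb (5.38 to 7.30) was the highest value of the 23 chromosomes, followed by 5.18 per Mb on chromosome 22. The lowest densities per Mb of such territory were 2.94 (2.30 to 3.69) on chromosome 21 and 3.22 (2.87 to 3.61) on chromosome 9. These densities keep the peak-free stretches in the territory, and the order of the chromosomes without them was not computed.

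**Figure D2:**
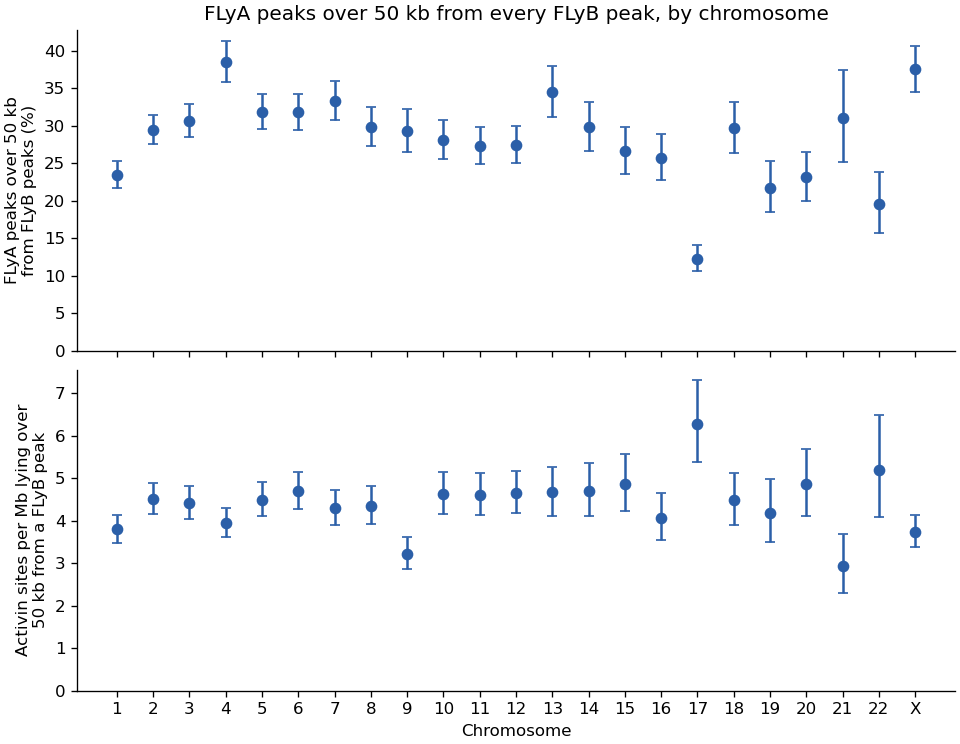
Upper panel, the share of R&D Systems FLyA peaks on each chromosome that are activin sites far from BMP4 sites, in percent. Lower panel, the number of these sites per Mb lying more than 50 kb from a FLyB peak, with peak-free stretches kept. Bars are exact 95% intervals, and chromosome 17 is lowest above (12.3%) and highest below (6.28 per Mb).

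The Santa Cruz antibody gave the readout that the choice did not use. Of the 7379 activin sites, 103 (1.40%, 1.14 to 1.69%) overlapped a Santa Cruz FLyA peak and 14 (0.190%, 0.104 to 0.318%) overlapped a Santa Cruz FLyB peak. Over all FLyA peaks of the R&D Systems antibody the shares were 3.01% and 5.01%, so the sites were below the whole list in both and further below it in FLyB. The choice left out FLyA peaks on R&D Systems FLyB peaks. These held 535 of the 778 FLyA peaks on a Santa Cruz FLyA peak and 1243 of the 1295 on a Santa Cruz FLyB peak. Both shortfalls, and the larger one in FLyB, were therefore largely set by the choice. The sites were met more often by the Santa Cruz peaks of their own medium, and the part of the choice in this order was not tested. The same order held for FLyA peaks near FLyB peaks without overlap (1.41% and 0.382%), and the order was the opposite for FLyA peaks on FLyB peaks (6.26% and 14.6%). No site overlapped peaks of both Santa Cruz lists, a count of 0 that allows a share of up to 0.0500% by the exact interval, against 0.870% of all FLyA peaks and 4 of the 9938 near FLyB peaks. Of the 225 FLyA peaks on both lists, 221 lay on an R&D Systems FLyB peak and were left out by the choice. Nothing is read from the count of 0. Neither list was met by 7262 sites (98.4%), against 92.9% of all FLyA peaks and 98.2% of the near peaks.

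Counted from the Santa Cruz lists, the activin sites covered 102 of the 2430 Santa Cruz FLyA peaks (4.20%, 3.44 to 5.07%) and 14 of the 3003 Santa Cruz FLyB peaks (0.466%, 0.255 to 0.781%). The ratio of these shares was 9.00. The lists differ in how much of them lay in the territory of the sites. In all, 899 Santa Cruz FLyA peaks (37.0%) and 288 Santa Cruz FLyB peaks (9.59%) were more than 50 kb from every R&D Systems FLyB peak. Of those 899 peaks, the activin sites met 102 (11.3%, 9.35 to 13.6%). Of the 288, they met 14 (4.86%, 2.68 to 8.02%). Within 50 kb of FLyB peaks, 43.9% of Santa Cruz FLyA peaks met an R&D Systems FLyA peak. Most Santa Cruz FLyA peaks in the territory of the sites therefore had no R&D Systems counterpart.

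Santa Cruz FLyA peaks were denser at the sites than beside them, as they were at the other FLyA peaks. Within 200 bp of the midpoints of activin sites there were 28.8 Santa Cruz FLyA peaks per Mb (23.0 to 35.6), and between 200 and 400 bp there were 6.10 (3.61 to 9.64). From 0.4 to 1 kb the density was 1.13 per Mb (0.542 to 2.08), and it declined to 0.628 (0.556 to 0.706) between 20 and 50 kb. Santa Cruz FLyB peaks also had their highest density at the midpoints, 3.73 per Mb within 200 bp (1.86 to 6.67) against 0.183 between 20 and 50 kb (0.145 to 0.227). At the midpoints the interval for Santa Cruz FLyA lay wholly above that for Santa Cruz FLyB, and the part of the choice in this order was not tested. Within 200 bp of FLyA peaks near FLyB peaks the densities were 30.9 and 7.80 per Mb, in the same order, and at FLyA peaks on FLyB peaks they were 146 and 346 per Mb. Whether the lists of both antibodies in a medium were called against the same input library is not given in the sources used here, and its part in the overlap was not tested.

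**Figure D3:**
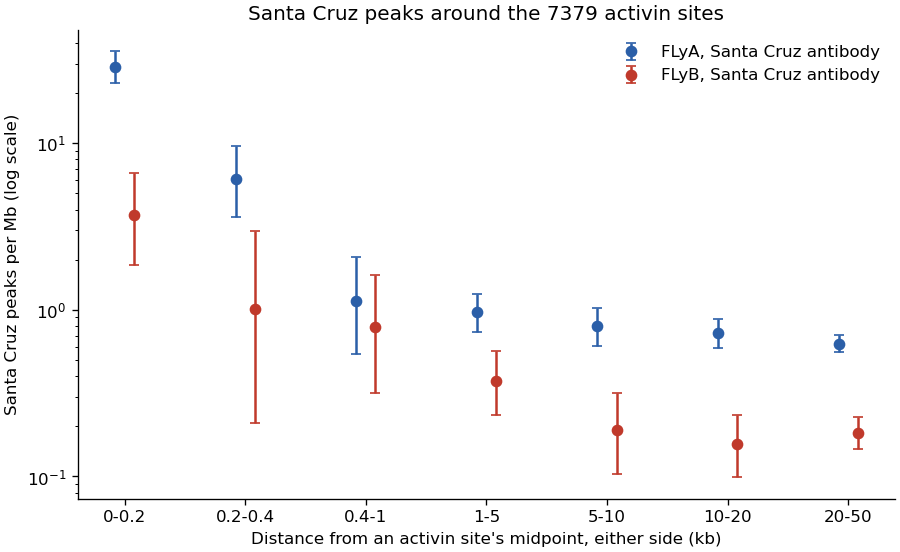
Santa Cruz peaks per Mb (log scale) by distance from the midpoints of the 7379 activin sites in kb, for Santa Cruz FLyA (blue) and FLyB (red). Points are densities and bars exact 95% Poisson intervals, and the blue density falls from 28.8 per Mb within 200 bp to 0.628 per Mb at 20 to 50 kb.

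Activin sites were compared with the other FLyA peaks for the same overlap. FLyA peaks within 50 kb of a FLyB peak but not on it overlapped Santa Cruz FLyA peaks at 1.41% (1.19 to 1.66%), and the difference from the activin sites was -0.0129 percentage points (Newcombe 95% interval -0.363 to 0.351). FLyA peaks that overlapped a FLyB peak did so at 6.26% (5.76 to 6.80%), and the activin sites were lower by a difference of -4.87 points (-5.45 to -4.29). For Santa Cruz FLyB peaks the shares were 0.382% near FLyB peaks and 14.6% on them. The activin sites differed from the near peaks by -0.193 points (-0.354 to -0.0275) and from the overlapping peaks by -14.4 points (-15.1 to -13.6). The overlapping peaks were defined by FLyB peaks of the R&D Systems antibody. A lower Santa Cruz FLyB share of the activin sites was thus set by the choice, and nothing is read from that difference. The Santa Cruz FLyB share of the near peaks was higher in those closest to FLyB peaks, with 0.706% at 0.4 to 10 kb and 0.154% at 10 to 50 kb. Against the peaks at 10 to 50 kb, the activin sites differed by 0.0353 points (-0.123 to 0.183) for Santa Cruz FLyB and by 0.0918 points (-0.314 to 0.485) for Santa Cruz FLyA.

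The FLyB peaks far from FLyA peaks, chosen by the same distance in the other direction, gave another level of overlap. Of these 4558 peaks, 375 (8.23%, 7.45 to 9.06%) overlapped a Santa Cruz peak of their own medium, against 10.0% of all R&D Systems FLyB peaks. The activin sites were lower in the corresponding share, by a difference of -6.83 percentage points (-7.70 to -6.01). Set against its own whole list, the share was 0.464 of the list's value for the activin sites and 0.820 for the FLyB peaks. Both whole lists include the peaks on a peak of the other medium, which the choice left out. Their own-medium shares were 6.26% in FLyA and 14.6% in FLyB. Peaks near the other medium without overlap had own-medium shares of 1.41% in FLyA and 7.13% (6.65 to 7.64%) in FLyB. The activin sites (1.40%) were thus close to their near peaks. Overlap with Santa Cruz peaks from the opposite medium was 0.190% for the activin sites and 0.263% (0.136 to 0.459%) for the FLyB peaks, and the difference of -0.0735 points had an interval (-0.284 to 0.0973) that included 0. The Santa Cruz lists differ in length between media, and the part of antibody sensitivity or BRA level in these differences was not tested.

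Among the activin sites the share on a Santa Cruz FLyA peak did not fall with distance from FLyB. It was 1.13% (0.793 to 1.56%) of the 3184 sites between 50 and 100 kb, 1.31% (0.901 to 1.83%) of the 2527 between 100 and 200 kb, 1.98% (1.28 to 2.90%) of the 1265 between 200 and 400 kb and 2.23% (1.03 to 4.20%) of the 403 beyond 400 kb. Of the 6 pairs of classes, 1 had a difference whose Newcombe interval left out 0, that between 200 to 400 kb and 50 to 100 kb (0.846 percentage points, 0.0791 to 1.82, not adjusted for the number of pairs). The class beyond 400 kb differed from that at 50 to 100 kb by 1.10 points (-0.0359 to 3.08). The share on a Santa Cruz FLyB peak was 0.157%, 0.317% and 0.0791% in the first 3 classes. Beyond 400 kb it was 0 of 403 sites, which allows up to 0.911% by the exact interval.

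**Figure D4:**
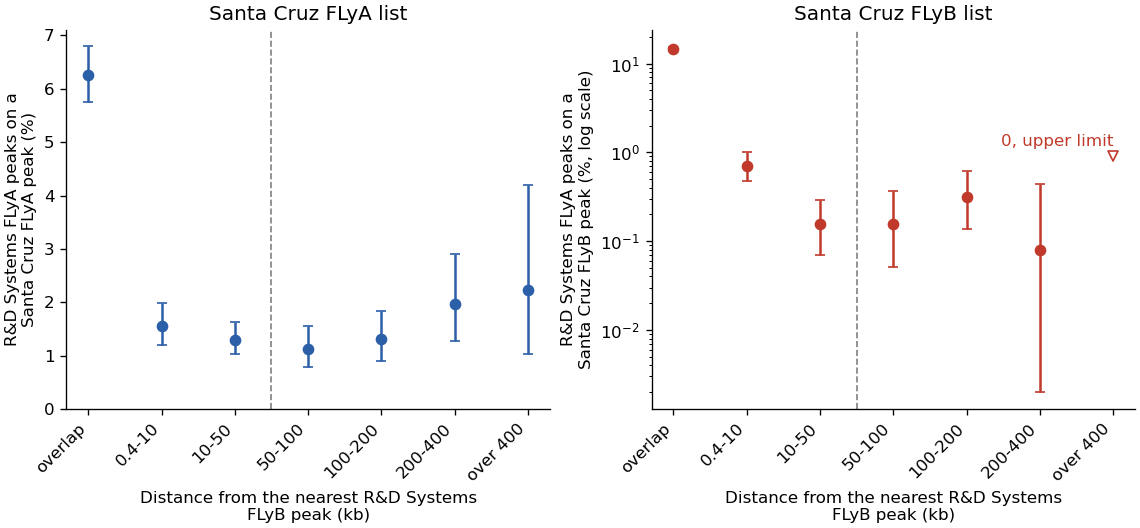
Share of R&D Systems FLyA peaks on a Santa Cruz FLyA peak (left, linear axis) and on a Santa Cruz FLyB peak (right, log axis), in percent, by distance from the nearest R&D Systems FLyB peak in kb. Points right of the dashed lines are activin sites, bars are exact 95% intervals, the open triangle is the upper bound where no site overlapped, and the left-hand share is 6.26% at overlapping peaks and between 1.13% and 2.23% at activin sites.

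The 103 activin sites on a Santa Cruz FLyA peak lay on 21 of the chromosomes, with none on chromosomes 19 and 22. Leaving out each chromosome in turn gave shares between 1.34% and 1.44%. The midpoints of the paired peaks were a median of 58 bp apart, 46 pairs were within 50 bp and 69 within 100 bp. These sites were a median of 128 kb from the nearest R&D Systems FLyB peak, with a range of 50.3 to 798 kb. Against the Santa Cruz FLyB list, which was not used to choose them, they lay a median of 537 kb from the nearest peak. The choice bears on this distance, and its part was not tested. Only 288 of the 3003 Santa Cruz FLyB peaks (9.59%) were more than 50 kb from every R&D Systems FLyB peak. In 1 of the 103, at chr2:128283795-128284194, a Santa Cruz FLyB peak lay within 50 kb, at 0.77 kb. Over all activin sites 158 of 7379 (2.14%) had such a peak within 50 kb, against 19.2% of all FLyA peaks. Nothing is read from a count of 1.

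The sites on a Santa Cruz FLyA peak were ordered by their distance from R&D Systems FLyB peaks, the measure that chose them. The farthest, chr3:79871240-79871639, was 798 kb from an R&D Systems FLyB peak and 366 kb from a Santa Cruz FLyB peak, and its Santa Cruz FLyA midpoint was 37 bp away. On the same chromosome, chr3:96987819-96988218 lay 723 kb from both kinds of FLyB peak, with its Santa Cruz FLyA midpoint 202 bp away. The site chr5:28402633-28403032 lay 663 kb from an R&D Systems FLyB peak and 5119 kb from a Santa Cruz FLyB peak, with 2 other FLyA peaks within 50 kb. These were followed by chr1:238835598-238835997 at 639 kb, chrX:92377126-92377525 at 599 kb and chr16:8287466-8287865 at 548 kb. The site chr1:238835598-238835997 and its Santa Cruz FLyA peak had midpoints 7 bp apart, and it lay 1114 kb from the nearest Santa Cruz FLyB peak.

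Further sites of this kind were chr6:129350891-129351290, 496 kb from an R&D Systems FLyB peak, and chr2:230045324-230045723, 475 kb away with a Santa Cruz FLyA midpoint at 8 bp. At chr14:20365501-20365900 the R&D Systems and Santa Cruz FLyA peaks had the same midpoint, and the nearest FLyB peak lay 446 kb away with R&D Systems and 1347 kb with Santa Cruz. Each of these 9 sites was 366 kb or more from any FLyB peak of either antibody. Of the 9, 5 had no other FLyA peak within 50 kb, close to the proportion among all activin sites (3847 of 7379).

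The 14 activin sites on a Santa Cruz FLyB peak go against their choice by the R&D Systems lists. They lay on 10 chromosomes, 4 of them on chromosome 12, without which the share was 0.142% in place of 0.190%. Their midpoints were a median of 75 bp from the Santa Cruz FLyB midpoint, and none had a Santa Cruz FLyA peak within 50 kb. The farthest from an R&D Systems FLyB peak, chr4:11859672-11860071, was 355 kb away from it and 96 bp from a Santa Cruz FLyB midpoint. The next, chr12:43732598-43732997, lay 149 kb from an R&D Systems FLyB peak and 49 bp from the Santa Cruz one. The closest midpoints were those at chr11:450043-450442, 31 bp apart, at a site 115 kb from an R&D Systems FLyB peak. Within 50 kb of their midpoints, 158 activin sites (2.14%) had a Santa Cruz FLyB peak, against 19.2% of all FLyA peaks, and 574 (7.78%) had a Santa Cruz FLyA peak, against 14.1% of all. The choice kept the sites away from R&D Systems FLyB peaks, and its part in these shares was not tested.

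Activin sites were more isolated within their own list than other FLyA peaks, and this spacing comes from the lists that chose them. Of the FLyB peaks far from FLyA peaks, 49.0% had another FLyB peak within 50 kb, and the median distance to the nearest was 51.4 kb. Of the 7379, 3532 (47.9%) had another FLyA peak within 50 kb, against 82.9% of the peaks near FLyB peaks and 75.2% of those on them. The median distance to the nearest FLyA peak was 52.8 kb, against 14.8 and 18.0 kb. With 3 or more other FLyA peaks within 50 kb there were 377 sites (5.11%), against 31.7% of the near and 29.2% of the overlapping FLyA peaks. The corresponding share of FLyB peaks far from FLyA peaks was 8.80%. The share on a Santa Cruz FLyA peak was 1.25% (0.921 to 1.65%) of sites with no FLyA neighbour, 1.33% (0.897 to 1.89%) with 1, 2.02% (1.20 to 3.17%) with 2 and 1.86% (0.750 to 3.79%) with 3 or more. These intervals overlapped.

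Joining activin sites whose successive midpoints lay at most 50 kb apart gave 5554 runs. Of these, 4221 held a single site, 984 a pair, 253 held 3 sites, 64 held 4, 20 held 5, 9 held 6 and 3 held 7. The 1333 runs of 2 or more held 3158 sites. A Santa Cruz FLyA peak was met by 1.28% (0.962 to 1.67%) of single sites, by 2.74% (1.82 to 3.97%) of pairs and by 5.44% (3.31 to 8.37%) of longer runs. Longer runs hold more sites, and counted by site the shares were 1.28%, 1.47% (0.989 to 2.11%) and 1.68% (1.03 to 2.58%), with overlapping intervals.

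Runs of 7 sites were found in 3 places. On chromosome 2, chr2:44995958-45032630 held 7 sites in 36.7 kb, with FLyB peaks 94.3 kb below and 145 kb above, and no Santa Cruz peak within 50 kb. On chromosome 13, chr13:53850420-53985987 held 7 sites in 136 kb, likewise with no Santa Cruz peak within 50 kb. On chromosome 17, chr17:10782756-10934955 held 7 sites in 152 kb, of which 1 overlapped a Santa Cruz FLyA peak, and 3 Santa Cruz FLyA peaks lay within 50 kb of the run. Over all activin sites the share on a Santa Cruz FLyA peak was 1.40%, and nothing is read from counts of 0 or 1 in runs of 7. Of the 9 runs of 6 sites, the 7 that rank highest by their shorter length included 1, at chr16:17390264-17477165, with a Santa Cruz FLyA peak within 50 kb.

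**Figure D5:**
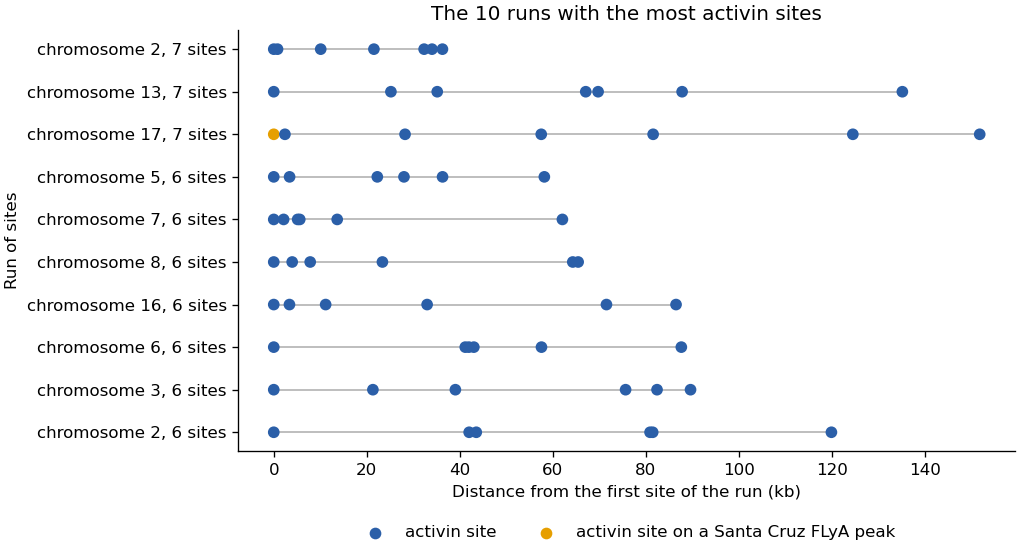
Activin sites in the 10 runs that hold the most of them, each row 1 run, by distance from the first site of the run in kb. Points are sites and the orange point is the 1 site on a Santa Cruz FLyA peak, in the run on chromosome 17, and the run on chromosome 2 holds 7 sites in 36.7 kb.

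Between successive FLyB peaks, 3579 stretches held 7358 of the activin sites, and the remainder lay beyond the first or last FLyB peak of a chromosome. The median stretch held 2 sites, 1783 stretches held 1, and 7 held 10 or more, with 79 sites in all. The highest number, 14, was in the stretch chr7:15879231-18561877, which spans 2683 kb and held 2 Santa Cruz FLyA and 2 Santa Cruz FLyB peaks. The stretch chr3:172395351-174043842 held 12 sites in 1648 kb, with 2 Santa Cruz FLyA peaks and no Santa Cruz FLyB peak. Among the stretches with 10 or more, the shortest was chr17:14362159-14878329, which held 10 sites in 516 kb together with 2 Santa Cruz FLyA peaks and no Santa Cruz FLyB peak. Its 24.0 sites per Mb lying more than 50 kb from a FLyB peak was above the 4.31 of all such territory, a value picked here as the highest of the 7.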

How the data were processed

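According to the study's methods, sequencing used a Genome Analyzer II and peak calling used MACS, and the submitters' processing notes name Bowtie 0.12.7 and the build hg19. The authors deposited peak positions only (unit other), each 400 bp wide, with no score, signal or p-value. A threshold of 1e-12 stands in the track lines of the Santa Cruz lists, and the R&D Systems lists give none. Positions are printed counted from 1.

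Sites were selected on the distance between R&D Systems midpoints, and the rule, the comparisons and the alternatives were chosen with earlier results of these data known. Overlaps, distances, densities on a 1 kb grid between the first and last peak of each chromosome, and runs were computed with SciPy 1.17.1 and NumPy 2.4.6 under Python 3.11.15. The overlap counts of the sites were checked against bedtools 2.31.1, and the classes, runs and intervals were tested on simulated data. Figures were drawn with matplotlib 3.10.9. No p-value was computed, as there is 1 library for each medium and antibody.

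Planned counts of nearby genes, promoters and T-box motifs, the rule for named genes and the printing of sequences need hg19. The gene tables used here are on GRCh38.p14, so no gene was assigned. Sites are named by rank: distance from FLyB, Santa Cruz overlap, or sites in a run or stretch, a rule chosen after the positions were seen. Peaks on other chromosomes (6 FLyA and 5 FLyB in the R&D Systems lists) were left out.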

Additional observations from a re-analysis of the deposited data

How the results depend on the processing

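The number of sites depends on the distance that defines them. It was 10211 at 25 kb and 4195 at 100 kb in place of 7379 at 50 kb, 7221 when Santa Cruz FLyB peaks also set the distance and 6992 on the autosomes. The share on a Santa Cruz FLyA peak ranged from 1.15% to 1.60% and that on a Santa Cruz FLyB peak from 0.142% (without chromosome 12) to 0.257% over the alternatives run for each. The Santa Cruz FLyA share was above the Santa Cruz FLyB share under every alternative run for both. Every alternative kept the sites away from R&D Systems FLyB peaks, so this order is no separate result, and the part of the choice in it was not tested. Leaving out each chromosome in turn (except the planned omission of chromosome 17 for the Santa Cruz FLyA share), leaving out 42 to 43 Mb of chromosome 10, adding the Santa Cruz FLyB peaks for the Santa Cruz FLyA share and removing peak-free stretches were chosen after seeing the data. Runs of 2 or more sites numbered 850 with gaps of at most 20 kb and 1627 with gaps of at most 100 kb, against 1333 at 50 kb.

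No paired analysis was possible because the results are counts of listed positions and come from no test over samples. The alternatives for T-box motifs, promoters and nearby genes were not run, since no hg19 genome or annotation was used here. Peak heights and read depths per library are unknown, the Santa Cruz experiments are described as the shallower and noisier, and a site's absence from a list says only that no peak was listed there.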
